A study of Mus musculus with 16 samples.

Results

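The expression of 10 glutathione S-transferase genes (Gsta2, Gsta3, Gsta4, Gstm1, Gstm2, Gstm5, Gstp1, Gsto1, Gstt1 and Gstk1) was examined in mouse dorsal skin. They were taken by gene symbol from count tables of 23282 rows, and all 10 were among the 14854 rows that passed a filter on low counts and were tested. Male wild-type C57BL/6N mice, 3 weeks old on arrival, entered the experiment after 1 week of adaptation. Cont mice were given normal chow and none of the treatments named below. LowAhR mice ate a diet low in ligands of the aryl hydrocarbon receptor (AhR) for 12 weeks and were kept on paper bedding free of these ligands, so differences due to food and to bedding cannot be told apart. LowAhR+AD mice were kept in the same way and, once 2 weeks of it had passed, had 1% DNCB, the hapten 2,4-dinitrochlorobenzene, painted on the back skin to induce atopic dermatitis (AD). LowAhR+AD+BJ mice had the diet, the DNCB and daily Bojungikgi-tang (BJIKT), a water extract of a herbal formula, at 1 g/kg by gavage. No group received DNCB on normal chow, so any DNCB difference was measured on the diet only. DNCB was applied in acetone and olive oil, and BJIKT was given in water. The paper describes no solvent or gavage alone in the groups without them. Differences due to DNCB and its solvent, or to BJIKT and the gavage, therefore cannot be told apart.

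Glutathione S-transferases join the tripeptide glutathione to electrophilic compounds, which makes these compounds more soluble and ready for export. DNCB is itself the standard laboratory substrate of many, but not all, of these enzymes, which displace its chlorine with glutathione. The family is split into classes by sequence: the alpha (Gsta), mu (Gstm) and pi (Gstp) classes act on a broad range of electrophiles, the theta class (Gstt) on small halogenated compounds, and the omega class (Gsto) mainly carries out thiol transfer and reduction. Gstk1 belongs to the kappa class, which lies in mitochondria and peroxisomes, so it differs from the cytosolic enzymes among which it was listed. Many of these genes are known targets of the transcription factors NRF2 and AhR.

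Because both factors act through short DNA elements, the sequence just upstream of a listed start of transcription was read from RefSeq (GRCm38.p6, the mm10 build). Its promoter table held 9 of the 10 genes, and every start meant here is the one listed there. By gene position, the windows of Gsta2 and Gsta3 ran a short way into the gene (Gsta3 starts at chr1:21240565). That of Gstt1 (chr10:75797732-75797981) lay wholly inside its gene (chr10:75783813-75798584). The sequences shown belong to 3 genes that changed with DNCB (Gsto1, Gsta3 and Gstm1) and to Gstm5, which held every searched element and passed no test. Each is 250 bases long and is written 5′ to 3′ on the strand of the gene. Gsto1 (chr19:47854723-47854972) and Gsta3 (chr1:21240335-21240584) lie on the plus strand, Gstm1 (chr3:108017974-108018223) on the minus strand and Gstm5 (chr3:107895604-107895853) on the plus strand. Capitals mark letters matching an element.
Gsto1: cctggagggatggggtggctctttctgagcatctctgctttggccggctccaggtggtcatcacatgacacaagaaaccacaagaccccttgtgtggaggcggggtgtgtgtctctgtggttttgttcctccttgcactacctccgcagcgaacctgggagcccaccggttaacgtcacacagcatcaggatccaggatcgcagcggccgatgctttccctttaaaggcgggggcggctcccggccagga
Gsta3: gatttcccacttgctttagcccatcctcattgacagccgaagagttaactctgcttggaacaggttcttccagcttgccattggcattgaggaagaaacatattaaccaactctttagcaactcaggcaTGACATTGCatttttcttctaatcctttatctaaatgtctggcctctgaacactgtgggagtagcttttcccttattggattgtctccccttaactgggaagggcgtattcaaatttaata
Gstm1: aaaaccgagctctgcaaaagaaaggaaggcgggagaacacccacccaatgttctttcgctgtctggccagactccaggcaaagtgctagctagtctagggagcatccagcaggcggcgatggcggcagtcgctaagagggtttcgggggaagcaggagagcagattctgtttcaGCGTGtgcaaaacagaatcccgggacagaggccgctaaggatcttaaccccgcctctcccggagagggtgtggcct
Gstm5: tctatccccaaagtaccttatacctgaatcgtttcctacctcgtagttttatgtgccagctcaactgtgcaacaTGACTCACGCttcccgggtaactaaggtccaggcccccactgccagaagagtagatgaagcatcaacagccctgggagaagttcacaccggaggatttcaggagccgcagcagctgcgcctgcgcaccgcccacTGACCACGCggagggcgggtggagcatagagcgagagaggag

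Both strands were searched for 3 elements. The core of the antioxidant response element, bound by NRF2 with small MAF proteins, was searched as TGACNNNGC and was held by 2 of the 9 genes, Gsta3 (TGACATTGC, 121 bases before the start) and Gstm5 (TGACCACGC, 42 bases before the start). It occurred in 10.1% of 27025 promoter windows of the same length. The AP-1 site TGACTCA was present in Gstm5 and Gstp1, against 4.43% of all windows. The core of the xenobiotic response element GCGTG, bound by AhR with ARNT, was present in Gsta2, Gstm1, Gstm5 and Gstp1, against 28.3% of all windows. In Gstm5, both matches to GCGTG lay on the opposite strand and overlapped the other elements. The windows of Gsto1, Gstm2, Gstt1 and Gstk1 held no match, which says only that these letters were not in this stretch (for Gstt1, a stretch inside the gene).

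Total RNA from 4 mice per group was made into QuantSeq libraries, which read a short stretch next to the poly(A) tail. A longer transcript therefore does not yield more reads, and levels in CPM (counts of a gene scaled by library size) can be set side by side between genes. This does not hold for genes that may share reads with a near copy or an overlapping gene, which are named below. Reads counted on genes numbered 7080508 to 8773876 per library in both groups without DNCB and 10614393 to 13467477 in both groups with it. The first LowAhR+AD library stood apart: of genes expected there at 20 to 40 counts, 38.2% were at 0, against at most 13.6% in any other library. The calls that rest on it are therefore also given without it. All 6 keratinocyte markers (among them Krt5, Krt14 and Trp63) were present in every group, with a summed level of 4073 to 12353 CPM.

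Summed levels of markers of several cell types differed between the groups. The summed level of 7 adipocyte markers was 2852 to 5612 CPM in Cont, 7221 to 11962 in LowAhR, 309 to 3732 in LowAhR+AD and 2555 to 3565 in LowAhR+AD+BJ. For 6 skeletal muscle markers the medians were 7425, 13844, 2461 and 3315 CPM in the same order. The fibroblast markers had medians of 45192, 25700, 8697 and 10599 CPM, and those of 8 hair follicle markers were 136, 874, 7378 and 6714 CPM. The hair follicle sum ran from 49.4 to 4402 CPM among the LowAhR libraries, which overlapped every other group. In bulk tissue, fewer cells of a type and less RNA per cell cannot be told apart, and the part of tissue makeup in the differences given here was not tested.

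**Figure D1:**
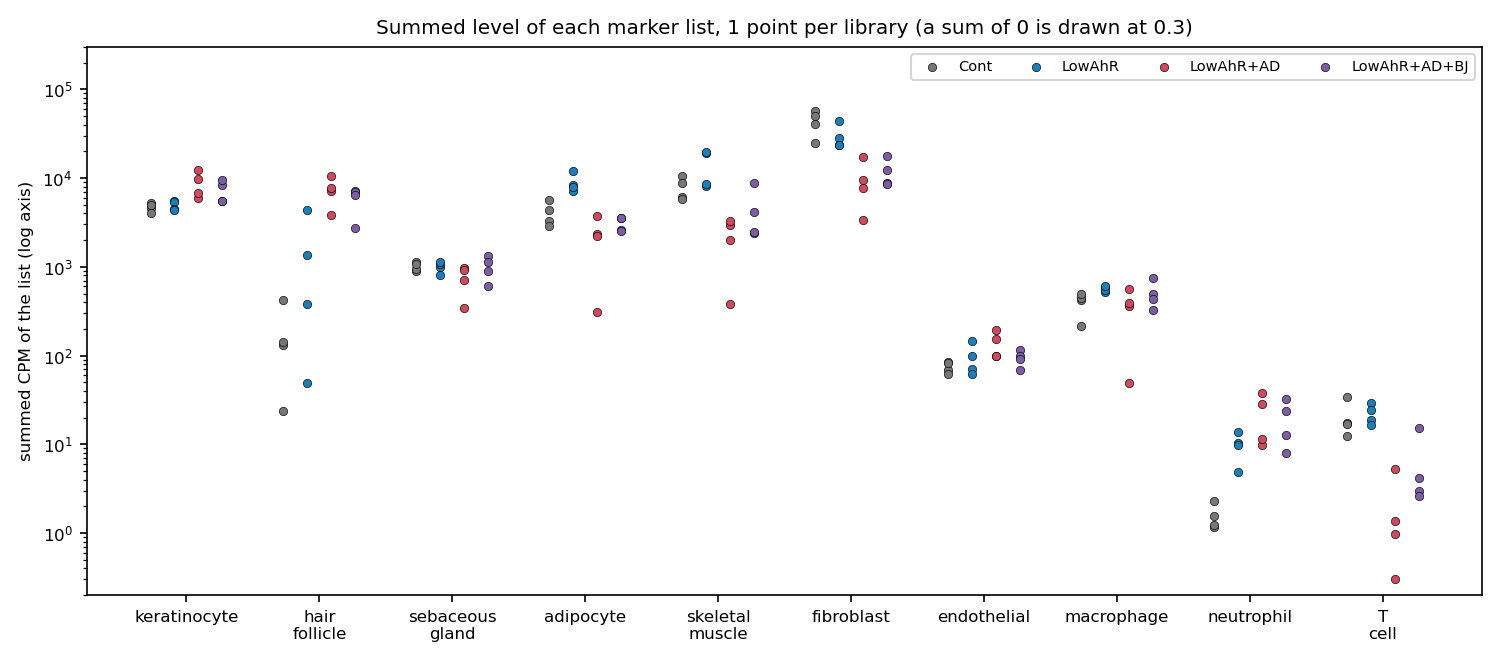
Summed level (CPM, log axis) of 10 lists of cell type markers, with 1 point per library and 4 libraries per group in each column of points. Hair follicle markers were lowest in Cont (median 136 CPM) and highest in LowAhR+AD (median 7378), while adipocyte, skeletal muscle and fibroblast sums were lower in both DNCB groups than in LowAhR in their medians.

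In Cont skin the genes differed in level by about an order of magnitude. Gstm1 was the highest in Cont, at 83.7 ± 22.8 CPM (SD, n = 4), followed by Gstp1 at 57.0 ± 4.17, Gstm2 at 55.2 ± 4.16, Gsto1 at 42.4 ± 10.3 and Gstm5 at 35.2 ± 5.92 CPM. Gstt1 (30.9 ± 13.9), Gsta3 (26.3 ± 11.8) and Gsta4 (20.5 ± 8.44) came next, and Gstk1 (9.10 ± 1.97) and Gsta2 (6.92 ± 3.34) were the lowest. The libraries of neighbours in this order overlapped, apart from those of Gsta4 and Gstk1 (11 to 28.7 CPM and 6.33 to 10.9 CPM). The means of Gstm1 and Gstp1 and those of Gstm2 and Gsto1 differed by more than the SD of either gene, and these differences were not tested. The sum over the 10 genes was 367 ± 50.7 CPM in Cont, 471 ± 85 in LowAhR, 495 ± 108 in LowAhR+AD and 679 ± 145 in LowAhR+AD+BJ. Gstp2, a near copy of Gstp1, was at 54.6 ± 3.05 CPM in Cont and is left out of this order and these sums. How reads shared by both copies were assigned is not given, so the place of Gstp1 is that of its row only.

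**Figure D2:**
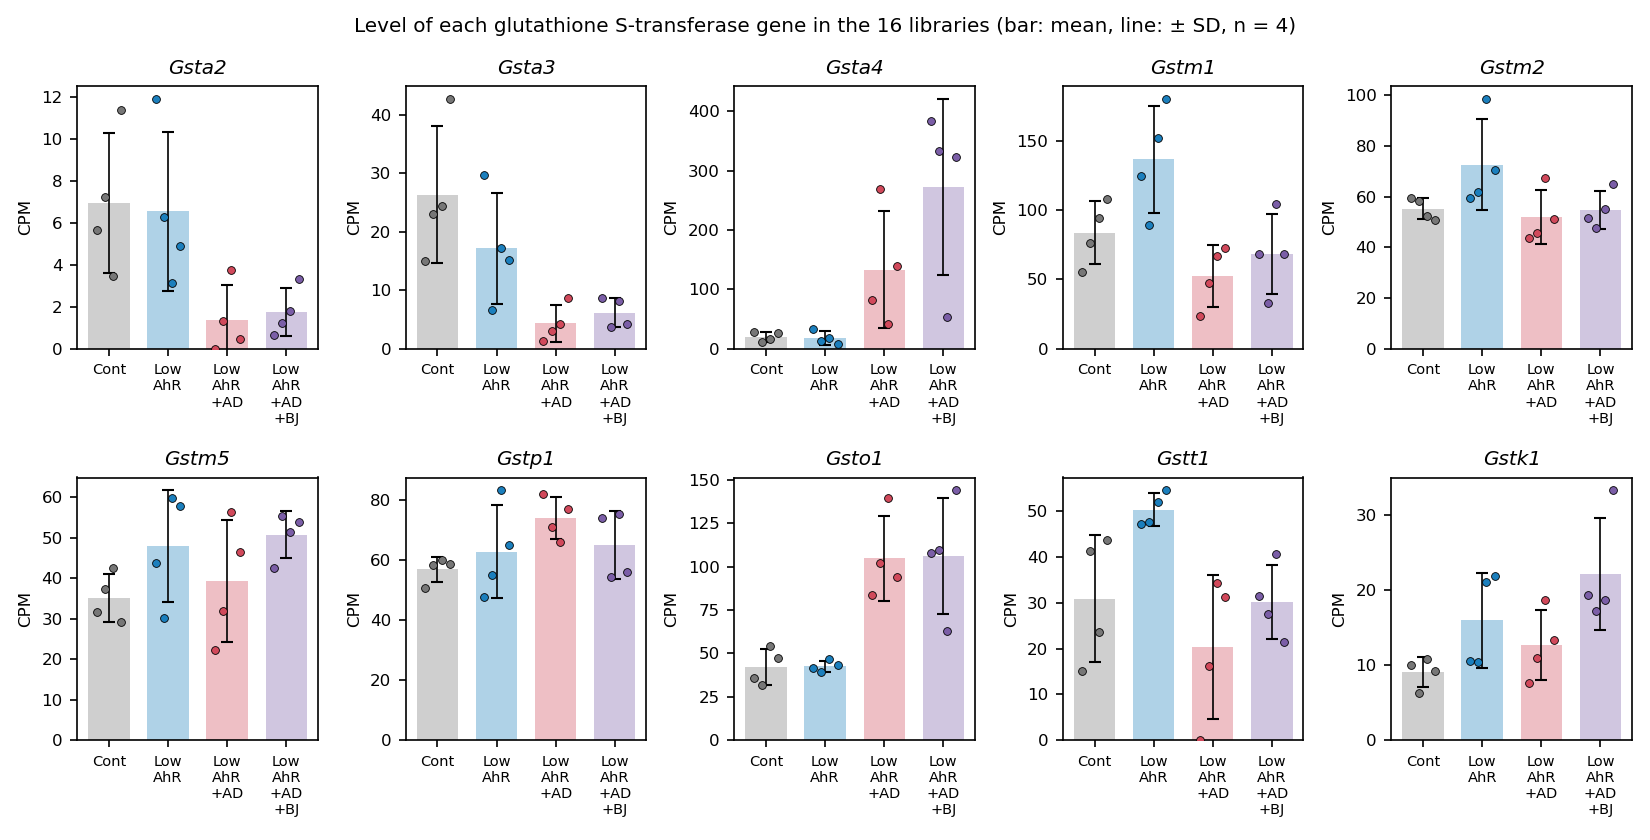
Level (CPM, linear axis from 0) of each glutathione S-transferase gene, with a point for each of the 16 libraries, a bar for the group mean and a line for ± SD (n = 4). Gsta4 and Gsto1 stood higher in both DNCB groups than in Cont and LowAhR, without overlap, and Gsta3 lay lower in LowAhR+AD than in Cont, without overlap.

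With DNCB on the low AhR ligand diet (LowAhR+AD against LowAhR), 4 of the 10 genes changed. Gsta4 and Gsto1 rose, and Gsta3 and Gstm1 fell. The alpha class was thus split, with Gsta4 7.41-fold higher and Gsta3 at 0.253 of its LowAhR level. Over all tested genes, 6.42% were called higher and 6.21% lower in this comparison at an adjusted p under 0.05. The groups did not overlap for 4 of the 10 genes (Gsta4, Gsto1, Gstm1 and Gstt1), against 18.8% of all tested genes. The median log2 fold change of the 10 genes was -0.41, and that of all tested genes was 0.04. Without the first LowAhR+AD library the number called was again 4.

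Gsta4 encodes the alpha enzyme that acts preferentially on hydroxynonenal and related aldehydes released by lipid peroxidation. Its level was 28.7, 11, 16 and 26.4 CPM in the 4 Cont libraries and 33.7, 13.4, 17.3 and 7.63 CPM in LowAhR. In LowAhR+AD it was 81.4, 269.5, 42.5 and 140.0 CPM, so the lowest DNCB library exceeded the highest library without DNCB. The log2 fold change of LowAhR+AD against LowAhR was 2.89 (SE 0.61, edgeR adjusted p = 0.00584, exact permutation p = 0.0286, the smallest that 4 against 4 allows), and without the first LowAhR+AD library it was 3.07 (adjusted p = 0.00503). Against Cont the log2 fold change was 2.70 (SE 0.61, edgeR adjusted p = 0.00450), or 2.87 without that library (adjusted p = 0.00301). Leaving out the second LowAhR+AD library, the highest, gave the lowest values, 2.29 against LowAhR (edgeR adjusted p = 0.0208) and 2.10 against Cont (0.0180).

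The spread of Gsta4 was wide within both DNCB groups. LowAhR+AD+BJ libraries held 383, 333, 53.9 and 323 CPM, with replicate 3 far under the other three. In LowAhR+AD replicate 3 was also the lowest. Of the 10 lists of cell type markers, looked at after these values were seen, those of fibroblasts (17311 and 17819 CPM) and T cells (5.28 and 15.2 CPM) were highest in replicate 3 of both DNCB groups, and their part in the spread of Gsta4 was not tested.

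Gsto1, of the omega class, reduces dehydroascorbate and removes glutathione from protein thiols. The Cont libraries held 35.7, 32.0, 54.4 and 47.4 CPM and the LowAhR libraries 41.4, 39.5, 46.9 and 43.2 CPM. The LowAhR+AD libraries held 83.6, 102, 139.8 and 93.8 CPM, all above every library without DNCB. Gsto1 rose 2.45-fold against LowAhR (log2 fold change 1.29, SE 0.25, edgeR adjusted p = 0.00340, exact permutation p = 0.0286) and 2.47-fold against Cont (edgeR adjusted p = 0.00147). The log2 fold change was 1.39 in both comparisons without the first LowAhR+AD library (edgeR adjusted p = 0.00228 and 0.000861). It overlaps Cfap43 on the opposite strand (chr19:47854973-47864790 in GRCm38.p6), and whether reads were counted by strand is not given in the sources used here, so reads of the neighbour cannot be told apart.

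Gsta3, an alpha enzyme known in mice for conjugating the epoxide of aflatoxin, moved the other way. Its level was 15, 23.1, 24.4 and 42.8 CPM in Cont, and 29.7, 6.65, 17.2 and 15.1 CPM in LowAhR. In LowAhR+AD it was 1.37, 3.03, 4.27 and 8.67 CPM, under every Cont library but overlapping the lowest LowAhR library. Gsta3 fell by 2.60 on the log2 scale against Cont (SE 0.55, edgeR adjusted p = 0.00307, exact permutation p = 0.0286). Against LowAhR it fell by 1.98 (SE 0.54, edgeR adjusted p = 0.0235, exact permutation p = 0.0571). This last call was lost when only the 8 compared libraries were fitted (edgeR adjusted p = 0.0852), without the first LowAhR library (0.0895) and without the second LowAhR+AD library (0.0637). Leaving out the first LowAhR+AD library gave log2 fold changes of -1.69 against LowAhR (edgeR adjusted p = 0.0436) and -2.32 against Cont (adjusted p = 0.00435). Gsta3 overlaps the antisense transcript Gm28836.

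Gstm1, a mu enzyme of broad substrate range, was the most abundant member in LowAhR. It was at 55.7, 76.4, 94.5 and 108 CPM in Cont, and at 125, 89.4, 152 and 181 CPM in LowAhR. LowAhR+AD libraries held 23.4, 47.2, 67.3 and 72.7 CPM, all under the lowest LowAhR library. The fall by 1.38 on the log2 scale against LowAhR (SE 0.36, edgeR adjusted p = 0.0187, exact permutation p = 0.0286) became 1.13 without the first LowAhR+AD library (adjusted p = 0.0345). The adjusted p was 0.0510 when only the 8 compared libraries were fitted and 0.05002 without the second LowAhR+AD library. Against Cont the log2 difference of Gstm1 was -0.67 (SE 0.36, edgeR adjusted p = 0.197), with overlap. The adipocyte and skeletal muscle sums were, like Gstm1, highest in LowAhR, and their part was not tested.

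Gsta2, a close relative of Gsta1 that acts on hydroperoxides and other electrophiles, was the least abundant member. Its level was 5.64, 7.23, 3.45 and 11.4 CPM in Cont and 11.9, 6.27, 3.12 and 4.89 CPM in LowAhR. LowAhR+AD libraries held 0, 1.31, 3.73 and 0.481 CPM, where the count of 0 in the first library allows up to 0.229 CPM (3 counts, counting error only). With edgeR the log2 difference was -2.23 against LowAhR (SE 0.94, adjusted p = 0.126) and -2.32 against Cont (adjusted p = 0.0871), which missed the threshold, while DESeq2 (adjusted p = 0.0429 and 0.0251) and limma voom (0.0413 and 0.0231) passed it. With the third LowAhR+AD library, the highest of its group, left out, edgeR called Gsta2 lower, at log2 fold changes of -3.43 against LowAhR (adjusted p = 0.0363) and -3.51 against Cont (adjusted p = 0.0246). With the first left out the differences were -1.83 (adjusted p = 0.144) and -1.92 (adjusted p = 0.0872).

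Gsta1, whose transcript is nearly identical to that of Gsta2, had a mean of 3.77 CPM in LowAhR and 7.58 CPM in LowAhR+AD. With the counts of Gsta1 and Gsta2 summed, an alternative added after the values were seen, the log2 difference of LowAhR+AD against LowAhR was -0.20 (SE 0.64). How reads common to both were assigned is not given in the sources used here, so the level of Gsta2 alone is uncertain.

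Gstt1, the theta enzyme that acts on small halogenated compounds, was at 15, 41.3, 23.7 and 43.7 CPM in Cont. LowAhR libraries were tightly grouped at 47.2, 47.6, 52.0 and 54.6 CPM, above all other libraries of the study. In LowAhR+AD the level was 0, 16.2, 34.3 and 31.2 CPM. The log2 difference against LowAhR was -1.30 (SE 0.74, edgeR adjusted p = 0.265, exact permutation p = 0.0286), and without the first LowAhR+AD library, where Gstt1 had no count, it was -0.89 (SE 0.34, adjusted p = 0.101). With limma voom and all libraries it was -3.40 (adjusted p = 0.0575). The groups did not overlap, but the fitted difference did not pass the test with or without that library.

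The remaining members passed no test with DNCB. Gstm2, a second mu enzyme, was at 59.5, 61.9, 98.7 and 70.4 CPM in LowAhR and 43.5, 45.7, 67.3 and 51.2 CPM in LowAhR+AD (log2 difference -0.48, SE 0.21, edgeR adjusted p = 0.131). Gstm5, known mainly from brain and testis, was at 43.8, 30.1, 59.8 and 58.0 CPM and at 22.3, 32.0, 56.4 and 46.5 CPM in these groups (log2 difference -0.29, SE 0.28). The 3 mu genes lie together on chromosome 3, and their relatives Gstm3, Gstm4, Gstm6 and Gstm7 had group means of at most 12.2 CPM. Gstm5 overlaps the antisense gene 4933431E20Rik.

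Gstp1, the pi enzyme that also binds the stress kinase JNK, was at 50.8, 58.5, 59.9 and 58.7 CPM in Cont and at 82.0, 71.0, 65.9 and 77.0 CPM in LowAhR+AD. These groups did not overlap, but the log2 difference of 0.38 (SE 0.20) had an edgeR adjusted p of 0.189. Its copy Gstp2 had nearly the same count in each library, with a ratio of 0.926 to 1.11, so the rows do not give separate measures of the copies. With Gstp1 and Gstp2 summed, the log2 difference was 0.42 (adjusted p = 0.140).

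Gstk1, the kappa enzyme that is also a chaperone in adiponectin assembly, was at 10.5, 10.5, 21.1 and 21.9 CPM in LowAhR and 7.63, 11, 18.6 and 13.4 CPM in LowAhR+AD (log2 difference -0.34, SE 0.36, edgeR adjusted p = 0.584). These groups overlapped.

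**Figure D3:**
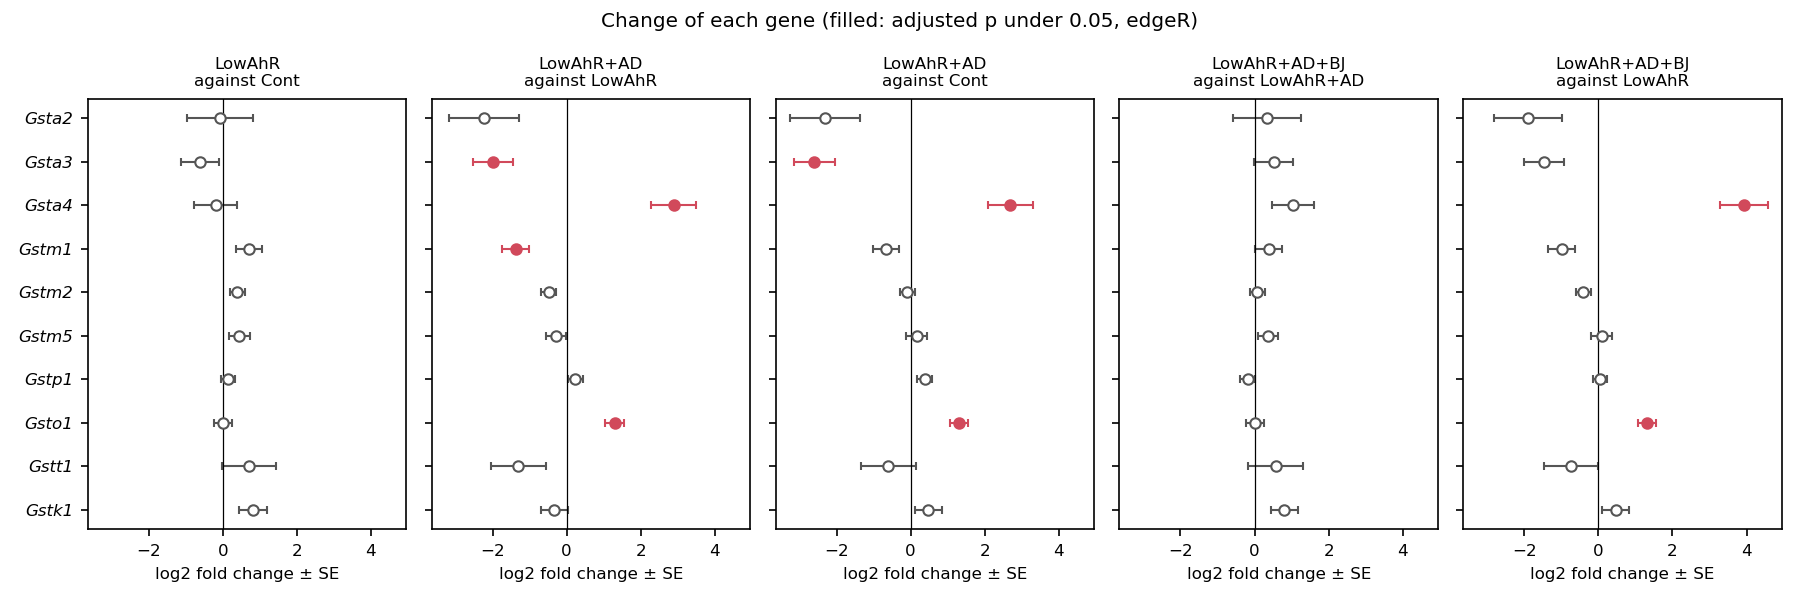
Log2 fold change (x axis) with its SE for each of the 10 genes in 5 comparisons, with filled points for an edgeR adjusted p under 0.05. Gsta4 and Gsto1 were higher in all 3 comparisons of a DNCB group with a group without DNCB, at log2 fold changes of 2.70 to 3.92 and 1.29 to 1.31, and no point is filled in LowAhR against Cont or in LowAhR+AD+BJ against LowAhR+AD.

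Set against normal chow (LowAhR+AD against Cont), 3 of the 10 genes passed the test: Gsta4 and Gsto1 were higher and Gsta3 lower. Of all tested genes, 12.3% were called higher and 9.47% lower here. LowAhR+AD and Cont differ in diet, bedding, DNCB and its solvent, so differences due to each of these cannot be told apart here. This comparison shares the LowAhR+AD libraries with the one against LowAhR, so the values stand side by side and do not support each other. Gsta3, Gsta4, Gstp1 and Gsto1 did not overlap between the groups (24.7% of all tested genes did not). Without the first LowAhR+AD library 3 genes were again called.

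The diet and bedding without DNCB (LowAhR against Cont) gave no call among the 10 genes with edgeR, DESeq2 (which returned no adjusted p for Gsta2 and Gsta3 here) or limma voom, and 1 gene, Gstk1, had an unadjusted edgeR p under 0.05. Gstk1 was at 10, 6.33, 10.9 and 9.21 CPM in Cont, a log2 difference of 0.81 (SE 0.37, edgeR adjusted p = 0.333) from LowAhR. The corresponding value for Gstm1 was 0.71 (SE 0.35, adjusted p = 0.396). Gstm2 (59.3, 58.2, 52.5 and 50.8 CPM in Cont, log2 difference 0.39) and Gstt1 (log2 difference 0.70) had every LowAhR library above every Cont library, with an exact permutation p of 0.0286 each. Gstm5 was at 31.7, 37.3, 42.4 and 29.2 CPM in Cont (log2 difference 0.45, SE 0.28). The other 5 genes lay between -0.62 (Gsta3, SE 0.52) and 0.14 (Gstp1, SE 0.20).

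Over all tested genes in this comparison, edgeR called 0 (0% higher, 0% lower; 2031 with an unadjusted p under 0.05), DESeq2 called 493 and limma voom 0. Groups did not overlap for 11.3% of the tested genes. The summed adipocyte markers did not overlap between Cont and LowAhR, and their part in the values of the 10 genes was not tested.

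BJIKT in DNCB-treated mice (LowAhR+AD+BJ against LowAhR+AD) also gave no call among the 10 genes with edgeR, DESeq2 or limma voom, and again 1 gene (Gstk1) had an unadjusted edgeR p under 0.05. Gstk1 was at 19.4, 17.2, 18.7 and 33.4 CPM with BJIKT (log2 difference 0.81, SE 0.36, edgeR adjusted p = 0.511). Gsta4 had the largest fitted difference, 1.03 on the log2 scale (SE 0.57, edgeR adjusted p = 0.569, exact permutation p = 0.286), with 3 of 4 BJIKT libraries above every LowAhR+AD library. Leaving out BJIKT replicate 3, the low one, gave 1.37 (SE 0.51, adjusted p = 0.427). Without the first LowAhR+AD library it was 0.85 (SE 0.61).

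The fitted differences with BJIKT were above 0 for 9 of the 10 genes, with a median of 0.37 against -0.00023 over all tested genes. The exception was Gstp1, at 74.0, 54.3, 75.3 and 56.0 CPM (log2 difference -0.19, SE 0.20). Without the first LowAhR+AD library, Gsta2, Gstm2 and Gsto1 were also under 0, at -0.088, -0.0044 and -0.082. Gsto1 had the smallest fitted difference, 0.02 (SE 0.24), at 108, 109, 62.9 and 144 CPM. No member was free of overlap between the groups (5.08% of all tested genes were), and edgeR called 0% of them higher and 0% lower (1405 with an unadjusted p under 0.05), while DESeq2 called 17 and limma voom 0. The SE ran from 0.20 (Gstp1) to 0.91 (Gsta2), so differences of that size were not detectable with 4 mice a group. Differences larger than their SE were not called either, such as those of Gsta4 (1.03) and Gstk1 (0.81).

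BJIKT-treated dermatitis was also set against mice on the diet without DNCB (LowAhR+AD+BJ against LowAhR), which shares the LowAhR libraries with the DNCB comparison. Gsta4 rose 15.2-fold (log2 fold change 3.92, SE 0.64, edgeR adjusted p = 0.00220) and Gsto1 2.48-fold (edgeR adjusted p = 0.00547), each without overlap, where 3.64% of all tested genes were called higher and 3.12% lower. Gsta3, at 8.66, 3.76, 8.08 and 4.23 CPM with BJIKT, had a log2 difference of -1.47 (SE 0.53, edgeR adjusted p = 0.108). For Gstm1, at 68.2, 33.1, 104 and 68.5 CPM, it was -0.996 (SE 0.36, edgeR adjusted p = 0.103). The Gstm1 call was gained with DESeq2 (adjusted p = 0.0467), with the replicate number as a block in edgeR (0.0426) and without BJIKT replicate 3 (0.0420).

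Of the other members, Gsta2 was at 0.638, 1.22, 1.79 and 3.33 CPM with BJIKT (log2 difference from LowAhR -1.90, SE 0.93, edgeR adjusted p = 0.239). Gstt1 was at 31.6, 27.5, 40.6 and 21.4 CPM, under every LowAhR library (log2 difference -0.73, SE 0.73). Gstm2 (51.4, 47.5, 55.3 and 64.8 CPM) and Gstm5 (42.5, 55.3, 51.3 and 53.9 CPM) differed from LowAhR by -0.41 (SE 0.21) and 0.08 (SE 0.28). For Gstk1 and Gstp1 the log2 differences from LowAhR were 0.47 and 0.05 (edgeR adjusted p = 0.502 and 0.920). Groups did not overlap for Gsta4, Gsto1 and Gstt1, against 17.1% of all tested genes.

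The makeup of the family differed between groups. Gsta4 made up 5.71% ± 2.73 (SD, n = 4) of the summed CPM of the 10 genes in Cont, 3.95% ± 2.54 in LowAhR, 25.8% ± 15 in LowAhR+AD and 37.7% ± 17.8 in LowAhR+AD+BJ. Gstm1 made up 22.5% ± 3.30, 28.7% ± 4.18, 10.4% ± 3.60 and 11.1% ± 7.54 in the same order. By class, the mu genes summed to 174 ± 20 CPM in Cont, 257 ± 63.5 in LowAhR, 144 ± 45.8 in LowAhR+AD and 174 ± 32.2 in LowAhR+AD+BJ. The alpha genes summed to 53.8 ± 18.2, 41.7 ± 22.9, 139 ± 98.8 and 281 ± 148 CPM in the same order. These shares and sums leave out Gstp2 and the other near copies outside the 10 genes. They are descriptions of the same values and were not tested.

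**Figure D4:**
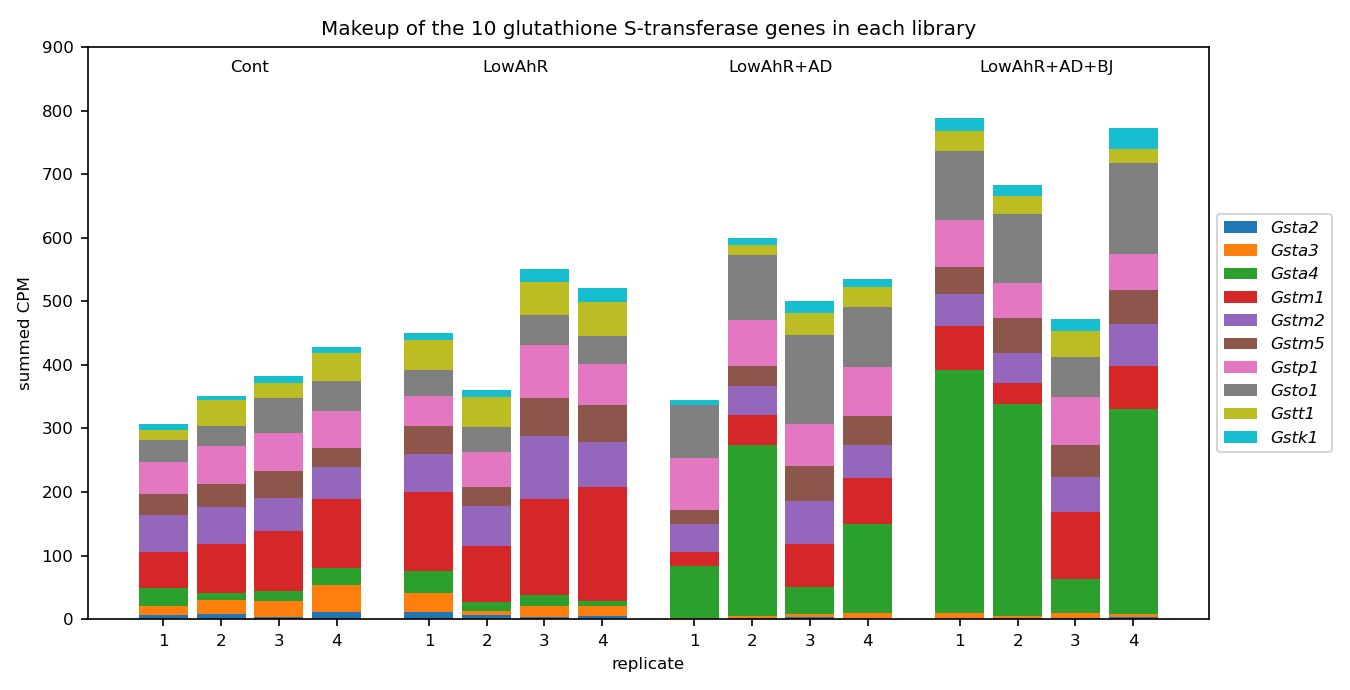
Stacked level (summed CPM) of the 10 genes in each of the 16 libraries, by group and replicate. Gsta4 took a mean of 25.8% of the stack in LowAhR+AD and 37.7% in LowAhR+AD+BJ, against 5.71% in Cont, and was smallest among the DNCB libraries in replicate 3 of each group.

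The other genes of glutathione metabolism were taken from lists chosen by function. Among the other cytosolic transferases, 10 of the 14 with a row of counts passed the filter on low counts. In LowAhR+AD, 2 of these were called lower and 0 higher, against LowAhR and against Cont alike. Over all tested genes, 6.42% were called higher and 6.21% lower against LowAhR, and 12.3% and 9.47% against Cont, which also stands beside the counts of the lists that follow. Gstz1, the zeta enzyme of tyrosine breakdown, was at 97.5, 82.5, 152 and 76.0 CPM in LowAhR and 52.3, 43.9, 40.5 and 50.1 CPM in LowAhR+AD (log2 fold change -1.13, edgeR adjusted p = 0.00831). Hpgds, the sigma enzyme that makes prostaglandin D and is typical of mast cells and some T cells, fell by 1.69 on the log2 scale (edgeR adjusted p = 0.00805). Its level was 81.2, 99.4, 98.9 and 48.2 CPM in LowAhR and 10.1, 31.6, 42.5 and 17.1 CPM in LowAhR+AD, without overlap. The sum of 3 T cell markers was 16.5 to 28.9 CPM in LowAhR and 0 to 5.28 CPM in LowAhR+AD, and its part was not tested. Of the 6 membrane-bound MAPEG genes, which include the microsomal transferases, 0 passed in any comparison with edgeR, where 2 had an unadjusted p under 0.05 for LowAhR+AD against LowAhR. DESeq2 and limma voom each called Mgst1 lower there, DESeq2 called Ptges higher in LowAhR+AD+BJ against LowAhR, and edgeR called Ptges higher in LowAhR+AD without its first library. Ptges makes prostaglandin E, Mgst1 is a microsomal transferase, and both are named here after their values were seen.

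The list of glutathione synthesis and turnover had 18 tested genes, of which 4 rose and 1 fell against LowAhR. Slc7a11, the cystine importer subunit that supplies cysteine for glutathione, was at 0.270, 1.41, 0.650 and 5.84 CPM in LowAhR and 1.22, 30.3, 15.4 and 27.3 CPM in LowAhR+AD (log2 fold change 3.16, SE 0.91, edgeR adjusted p = 0.0340), and was not called with limma voom (adjusted p = 0.222). All 4 Cont libraries had no Slc7a11 count. The LowAhR+AD mean was at least 49.4-fold above the mean limit that 3 counts set per Cont library, which covers counting error only. In the Cont libraries, 2.67% to 12.0% of genes expected at 20 to 40 counts were at 0. Oplah, which recycles oxoproline to glutamate, rose by a log2 value of 1.85 (edgeR adjusted p = 0.0105). Its level in LowAhR+AD was 231, 49.2, 51.8 and 63.5 CPM, and without the first library the log2 fold change was 0.998 (adjusted p = 0.0296). Against Cont, Oplah was called with all libraries, and was not called without that library (log2 difference 0.58, edgeR adjusted p = 0.151) or with limma voom (0.0772). Lap3, a leucine aminopeptidase, rose by 1.27 against LowAhR (edgeR adjusted p = 0.0193). Dpep1, a dipeptidase of glutathione breakdown, fell by 1.18 (edgeR adjusted p = 0.0221). Slc3a2, the partner chain of Slc7a11, was called against LowAhR and against Cont, and Chac1, which cleaves glutathione inside cells, against Cont only in these tests (the difference between the comparisons was not tested).

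Against Cont, 6 genes of that list rose and 1 fell. Ggt1, the surface enzyme that starts glutathione breakdown, had 0 counts in Cont and a mean of 10.8 CPM in LowAhR+AD. This mean was at least 28.9-fold above the same limit, which again covers counting error only. Of 16 tested genes of glutathione reduction and peroxidases, 2 rose against LowAhR (Gpx2 and Glrx) and 7 rose and 1 fell against Cont. Gpx2, an epithelial glutathione peroxidase, was at 5.27, 0, 3.12 and 12.0 CPM in LowAhR and 387, 53.8, 11.3 and 45.5 CPM in LowAhR+AD (log2 fold change 4.59, SE 1.07, edgeR adjusted p = 0.0100). The value became 2.85 without the first LowAhR+AD library, which was far above the other three (SE 0.84, edgeR adjusted p = 0.0359), and the log2 fold change against Cont was then 3.91 (adjusted p = 0.00405). Glrx, a glutaredoxin, rose by a log2 value of 1.48 (edgeR adjusted p = 0.0285). With limma voom neither Gpx2 (adjusted p = 0.156) nor Glrx (0.0716) was called against LowAhR, and Gpx2 was not called against Cont (0.127). The 3 largest rises against Cont were those of Gpx2 (5.67), Glrx (2.11) and Esd, which acts on a glutathione adduct of formaldehyde, at a log2 value of 1.25 (edgeR adjusted p = 0.00190). Gpx3, the secreted peroxidase, fell by 1.49 against Cont (edgeR adjusted p = 0.0268). With limma voom, Ggt1 and Gpx3 were called against LowAhR, where edgeR did not call them.

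Among 5 tested exporters of glutathione conjugates, 1 fell and 0 rose against LowAhR, and 2 fell against Cont. Abcc4, a multidrug resistance pump, was at 57.7, 92.7, 71.1 and 85.7 CPM in Cont and 8.85, 21.1, 17.2 and 11.1 CPM in LowAhR+AD, a fall by 2.40 on the log2 scale (edgeR adjusted p = 0.000284). Abcc5, a related pump, fell by 0.90 against Cont (edgeR adjusted p = 0.0397).

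**Figure D5:**
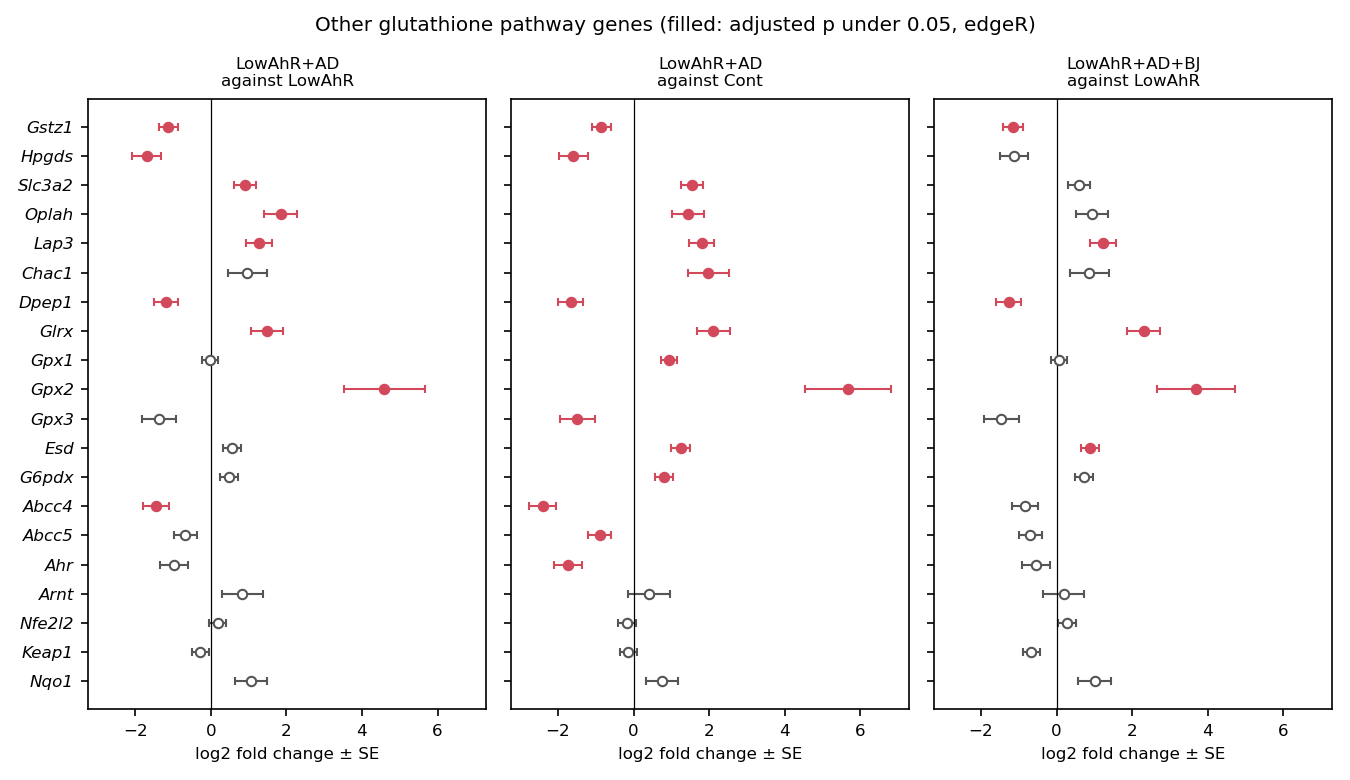
Log2 fold change with its SE of a part of the other genes of glutathione metabolism and its regulators in 3 comparisons. Filled points have an edgeR adjusted p under 0.05. Genes with no count in Cont are left out, as are some genes named in the text, among them Ahrr, Nfe2l1, Mafk and Idh1. Gpx2 has the largest values, at 4.59 against LowAhR and 5.67 against Cont, and Arnt, Nfe2l2, Keap1 and Nqo1 have no filled point.

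Of the 12 tested regulators, 3 fell against Cont and 0 passed against LowAhR with edgeR (5 had an unadjusted p under 0.05 there, DESeq2 called 1, Ahrr, and limma voom 0). Ahr itself was at 51.7, 48.9, 41.4 and 47.9 CPM in Cont and 4.42, 19.8, 14.8 and 18.2 CPM in LowAhR+AD, a fall by 1.73 on the log2 scale (SE 0.38, edgeR adjusted p = 0.00356). Its LowAhR libraries, at 32.2, 32.2, 27.7 and 20.9 CPM, lay between the groups without overlap, with a log2 difference from Cont of -0.75 (edgeR adjusted p = 0.383). Ahrr, the AhR repressor, had a log2 fold change of -3.17 against Cont (edgeR adjusted p = 0.0217). Nfe2l1, which encodes NRF1, a relative of NRF2, had means of 182 CPM in Cont and 113 CPM in LowAhR+AD and fell by 0.69 (SE 0.23, edgeR adjusted p = 0.0357).

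Without the first LowAhR+AD library, Mafk, a small MAF partner of NRF2, was also called lower against LowAhR (edgeR adjusted p = 0.0494). In LowAhR+AD against Cont, Oplah and Glo1 were then no longer called, Cth and Gpx7 were called higher, and Bach1 was called lower. No other call of LowAhR+AD in these lists changed with edgeR, apart from that of Ptges given above, and Glo1, Cth, Gpx7 and Bach1 are named after their values were seen.

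Nfe2l2, which encodes NRF2, and its inhibitor Keap1 had log2 differences of 0.18 (SE 0.23) and -0.27 (SE 0.22) between LowAhR+AD and LowAhR. Those of Arnt, the partner of AhR, and Nqo1, a shared target of AhR and NRF2, were 0.84 (SE 0.55) and 1.07 (SE 0.43), with edgeR adjusted p of 0.342 and 0.110.

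With BJIKT against LowAhR+AD, 0 genes of any of these lists were called with edgeR, DESeq2 or limma voom, and between 0 and 1 gene of each list had an unadjusted p under 0.05. Ahr, Nfe2l2, Keap1, Arnt and Nqo1 had log2 differences of 0.45 (SE 0.37), 0.09 (SE 0.23), -0.40 (SE 0.23), -0.65 (SE 0.55) and -0.06 (SE 0.42). In LowAhR+AD+BJ against LowAhR, Slc7a11 and Lap3 rose and Dpep1 fell in the synthesis list, Gpx2, Glrx, Esd and Idh1 rose in the reduction list, and Gstz1 and Mafk fell, where 3.64% of all tested genes were called higher and 3.12% lower. With limma voom, Slc7a11, Gpx2 and Idh1 were not called there (the lowest adjusted p of these, that of Idh1, was 0.0516) and Gpx3 was called lower. DESeq2 kept the edgeR calls there and also called G6pdx and Glo1 higher and Hpgds, Gpx3 and Keap1 lower. Keap1 had a log2 difference of -0.66 with limma voom, without a call (adjusted p = 0.0953). Between LowAhR and Cont, 0 genes of these lists were called with edgeR and limma voom (at most 4 per list had an unadjusted edgeR p under 0.05), and DESeq2 called 1 gene, Gpx1, higher.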

How the data were processed

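Skin RNA of 16 mice (4 groups of 4) was sequenced from a single end after QuantSeq preparation. The authors deposited raw read counts per gene symbol. The submitters' processing notes name Bowtie2, bedtools and mm10; versions, the treatment of strand and of reads shared between genes are not given in the sources used here. Groups and replicates were taken from the labels; whether mice shared a cage is not stated.

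Counts were tested in R 4.3.3 with edgeR 4.0.16: filterByExpr (minimum count 10, minimum total 15), TMM factors and the quasi-likelihood test, with all 16 libraries and the group alone in 1 model. Adjusted p-values (Benjamini-Hochberg) cover all 14854 tested rows, and a gene was called under 0.05. Fold changes are from this fit, and levels are CPM with TMM factors. Exact two-sided permutation tests used log2 CPM (prior count 2). DESeq2 1.42.0, limma 3.58.1 (voom), other factors, no filter, fewer libraries, a replicate block and each library left out were alternatives. The code was tested on simulated data.

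The 10 genes and all lists were chosen with earlier results of these data known. All 10 are named in every comparison; from other lists, called genes with at least 10 CPM in a group are named, the 3 largest in each direction, and Ahr, Arnt, Nfe2l2, Keap1 and Nqo1 always. Gstp2, Gsta1 and the other Gstm genes are named as near copies. 1 gene of the exporter list is not reported here.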

Additional observations from a re-analysis of the deposited data

Results flagged for a closer look

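In 3 of the 40 combinations of gene and group, 1 library lay farther from the other 3 than Dixon's limit allows for 4 samples, and chance alone passes that limit in about 1 of 20 groups. Gsta4 in LowAhR+AD+BJ replicate 3 was at 53.9 CPM, against 323 CPM in the nearest library (ratio 0.912). Gstt1 in LowAhR+AD replicate 1 had a count of 0, against 16.2 CPM in the nearest library (ratio 0.856). The prior count places that 0 at -2.30 on the log2 scale, so this ratio depends on the prior count. Gstp1 in Cont replicate 1 was at 50.8 CPM, against 58.5 CPM (ratio 0.853).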

How the results depend on the processing

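Gsta2, the lowest member, rested on few counts, and the first LowAhR+AD library had an excess of zero counts. Over 50 values (10 genes in 5 comparisons), RLE factors and no filter on low counts changed no call or direction. Gsta4 and Gsto1 were called in every alternative of the 3 comparisons of DNCB groups with groups without DNCB. The calls that changed are given beside the genes above (Gsta2, Gsta3 and Gstm1), and their cause was not tested.

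In a model of only the 8 libraries compared, 2 of the 10 genes were called for LowAhR+AD against LowAhR in place of 4, and 2 to 5 when libraries were left out in turn (2 without LowAhR+AD replicate 2, 5 without replicate 3). Over all genes that comparison had 1876 calls, 765 with only the 8 libraries and 1128 to 2015 with a library left out. LowAhR against Cont had 0 calls, 250 with only the 8 libraries, 493 with DESeq2 and 0 to 159 with a library left out (159 without LowAhR replicate 2). LowAhR+AD+BJ against LowAhR+AD had 0, 17 with DESeq2 and 0 to 1, and LowAhR+AD+BJ against LowAhR had 1005, 1666 with DESeq2 and 414 to 1469 (414 without LowAhR+AD+BJ replicate 2, 1469 without replicate 3).

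No called value changed sign. Signs turned in uncalled values only: with library totals, Gsto1 (-0.0977) in LowAhR against Cont and Gstm2 (-0.0123) and Gsto1 (-0.077) with BJIKT, with limma voom Gsto1 (-0.0248) with BJIKT, and with Gsta1 added after the values were seen, Gsta2 (0.188) in LowAhR+AD+BJ against LowAhR. With a library left out, LowAhR against Cont ranged from -0.538 to 0.268 for Gsta2, -0.685 to 0.0628 for Gsta4, -0.0265 to 0.252 for Gstp1 and -0.099 to 0.157 for Gsto1. LowAhR+AD against Cont ranged from -0.0634 to 0.339 for Gstm5. LowAhR+AD+BJ against LowAhR ranged from -0.0853 to 0.211 for Gstm5 and -0.061 to 0.217 for Gstp1, and LowAhR+AD+BJ against LowAhR+AD from -0.179 to 1.53 for Gsta2, -0.0148 to 0.227 for Gstm2 and -0.167 to 0.194 for Gsto1.

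The replicate numbers were not taken to pair the mice, as the labels give no pairing. The deviations of same-numbered libraries from their group means had correlations of -0.0547 to 0.167 over genes, 3 of 24 above 0.1. Other pairs between groups had -0.146 to 0.140, with 2 of 72 above 0.1. As a hint of pairing from the data, 7 of 16 libraries correlated best with their own number, a larger share than that of same-numbered pairs among all these pairs. Whether a batch follows the numbers is not settled by these values. With the replicate number as a block, 3 of the 10 genes were called for LowAhR+AD+BJ against LowAhR in place of 2 (Gstm1 in addition), Gsta2 in LowAhR against Cont turned to 0.0845 without a call, and no other call among the 50 values changed.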
